A study of Mus musculus with 2 samples.

Results

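Blood endothelial cells are the inner lining of arteries, capillaries and veins, and here they are the 160 such cells found among 2854 cells of the stromal vascular fraction of mouse subcutaneous white fat. The cells were chosen by their own counts: a cell was a member when its UMIs (unique molecular identifiers, each a counted RNA molecule) of Pecam1, Cdh5 and Egfl7 summed to 3 or more, when it held no UMI of Pdgfra, the receptor that marks fat progenitors and fibroblasts, and when its UMIs of the lymphatic genes Prox1, Mmrn1, Lyve1, Reln, Flt4 and Ccl21a summed to less than 3. The levels of these genes therefore describe the choice and are not findings. A cell had to hold at least 1000 UMIs and 500 genes, with at most 10% mitochondrial UMIs.

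The study made 2 droplet single-cell RNA libraries after removal of CD45-positive blood cells by sorting, 1 from WT mice and 1 from Paqr4 transgenic mice. Cells of 3 mice were pooled, and the labels do not say whether that was 3 for each genotype. The promoter or cell type that drives the transgene, the strain and the age of the mice are not given in the sources used here. With 1 library for each genotype there is no replicate, so no test between genotypes was run and no p-value is given. Every interval below is an exact 95% interval that covers counting error only, not the variation between mice.

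The members were 85 of 1329 WT cells (6.40%, Clopper-Pearson interval 5.14 to 7.85) and 75 of 1525 transgenic cells (4.92%, 3.89 to 6.13). These intervals overlap. The members' median depth was 9857 UMIs and 3144 genes in WT and 7584 UMIs and 2676 genes in transgenic cells. Summed over cells, the WT members held 813476 UMIs and the transgenic members 597224. Levels are given as UPM, the UMIs of a gene per 1000000 UMIs of the cells named. The 3 UMIs put in place of a count of 0 in ratios stand at 3.69 UPM in the WT members and 5.02 UPM in the transgenic members.

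The capillaries of fat do more than conduct blood. Their endothelium holds lipoprotein lipase on its surface through the anchor protein Gpihbp1, takes up the released fatty acids through Cd36 and the binding proteins Fabp4 and Fabp5, and passes them to adipocytes. The transcription factors Pparg, Meox2 and Tcf15 are known to control this programme. Growth and survival of the vessel depend on the VEGF receptors Kdr and Flt1, on the angiopoietin receptor Tek and on Notch and BMP signals. Junction proteins such as Cdh5 and Cldn5 seal the wall, whereas Plvap forms the diaphragms of fenestrae and caveolae in permeable capillaries. ETS and SOX proteins, among them Erg, Fli1 and Sox17, are transcription factors of endothelial cells.

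Promoter sequences are shown for some of the genes named below. Genes that went together across these cells can then be set beside the sequence at their start. The markers Pecam1, Cdh5, Egfl7, Kdr and Cldn5 and the genes most above progenitors, 23 in all and listed with their levels below, had a RefSeq promoter entry (GRCm38.p6) for 17, with 21 start sites. The 6 without one were Pecam1, Cdh5, Ptprb, Gpihbp1, Pdgfb and Cd93, and Plvap had none either. Flt1, Tek and Igfbp3 are shown in addition to these 23. Each sequence is the 250 bases before the start site, read 5′ to 3′ on the strand of the gene. Capitals mark an ETS core (AGGAAG, or the same letters with CGG in place of AGG) or a SOX core (ACAAAG), each searched on both strands, so that a reverse complement also counts and is in capitals. No sequence printed here holds a core of each kind. The Fkbp5 promoter, not printed, holds 1 ETS and 1 SOX core. Egfl7 has 3 listed starts, with 3, 1 and 0 ETS cores and a SOX core in the last, and only the start with 3 is printed. Egfl7 at that start, Flt1 and Emcn, all endothelial genes, hold ETS cores, Tek and Cd36 hold SOX cores, and Kdr, Cldn5 and Igfbp3 hold neither.
Egfl7 (chr2:26580833-26581082, plus strand): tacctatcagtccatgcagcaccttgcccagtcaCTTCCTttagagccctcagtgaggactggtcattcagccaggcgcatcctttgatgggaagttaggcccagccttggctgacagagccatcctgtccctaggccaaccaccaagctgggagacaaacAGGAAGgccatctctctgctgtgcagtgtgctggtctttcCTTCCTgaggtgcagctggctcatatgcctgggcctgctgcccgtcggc
Flt1 (chr5:147726012-147726261, minus strand): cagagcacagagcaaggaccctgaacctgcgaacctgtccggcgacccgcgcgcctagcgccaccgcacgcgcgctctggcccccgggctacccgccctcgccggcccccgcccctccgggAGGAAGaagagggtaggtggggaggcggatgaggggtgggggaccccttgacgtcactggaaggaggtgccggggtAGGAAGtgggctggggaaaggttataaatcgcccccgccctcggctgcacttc
Emcn (chr3:137340828-137341077, plus strand): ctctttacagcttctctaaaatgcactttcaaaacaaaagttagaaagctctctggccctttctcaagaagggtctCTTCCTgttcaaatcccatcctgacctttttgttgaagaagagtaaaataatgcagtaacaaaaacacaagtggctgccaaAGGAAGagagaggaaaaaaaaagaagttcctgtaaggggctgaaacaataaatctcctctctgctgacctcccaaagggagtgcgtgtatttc
Tek (chr4:94739039-94739288, plus strand): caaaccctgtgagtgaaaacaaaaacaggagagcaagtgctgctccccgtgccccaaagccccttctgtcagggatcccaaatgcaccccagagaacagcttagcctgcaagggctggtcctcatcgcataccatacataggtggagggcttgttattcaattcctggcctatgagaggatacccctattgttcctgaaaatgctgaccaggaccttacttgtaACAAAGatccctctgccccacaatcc
Cd36 (chr5:17835897-17836146, minus strand): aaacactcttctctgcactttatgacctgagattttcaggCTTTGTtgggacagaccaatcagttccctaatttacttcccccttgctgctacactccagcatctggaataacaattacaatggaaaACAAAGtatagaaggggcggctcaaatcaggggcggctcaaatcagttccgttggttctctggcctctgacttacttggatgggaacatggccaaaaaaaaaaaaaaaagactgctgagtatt
Kdr (chr5:75978456-75978705, minus strand): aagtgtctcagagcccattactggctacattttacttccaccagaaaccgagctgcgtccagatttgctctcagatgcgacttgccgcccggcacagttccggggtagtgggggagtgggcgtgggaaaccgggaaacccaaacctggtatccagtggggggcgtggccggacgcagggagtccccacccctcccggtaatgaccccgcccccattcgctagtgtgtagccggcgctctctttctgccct
Cldn5 (chr16:18776597-18776846, plus strand): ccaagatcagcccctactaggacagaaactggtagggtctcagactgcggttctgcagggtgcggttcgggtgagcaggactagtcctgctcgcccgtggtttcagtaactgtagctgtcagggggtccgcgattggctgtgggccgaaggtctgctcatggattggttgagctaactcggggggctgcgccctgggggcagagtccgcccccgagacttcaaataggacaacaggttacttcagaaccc
Igfbp3 (chr11:7213924-7214173, minus strand): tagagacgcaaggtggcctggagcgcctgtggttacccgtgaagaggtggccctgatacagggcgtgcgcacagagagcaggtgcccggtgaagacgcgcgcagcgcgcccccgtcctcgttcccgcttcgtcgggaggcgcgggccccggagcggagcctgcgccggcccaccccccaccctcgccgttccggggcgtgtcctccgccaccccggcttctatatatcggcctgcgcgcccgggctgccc
Cores of these kinds are common. An ETS core stood in 12 of the 21 starts of the 17 genes (57.1%) and in 12880 of all 32851 promoters of the table (39.2%). A SOX core stood in 5 of the 21 (23.8%) and in 5408 of all promoters (16.5%). A match is a description of the letters, not evidence of a bound site, and an absent match says only that these letters are not in this window.

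Several facts of the libraries bear on all comparisons. The whole libraries held 44145257 UMIs in WT and 43084906 in the transgenic matrix, and the called cells shared no barcode. The members of the libraries differed in sex as well as genotype: Xist, the RNA of the inactive X chromosome, had 365 UMIs in WT members and 0 in transgenic members, while the Y-linked genes Uty, Ddx3y and Eif2s3y had 0, 1 and 0 UMIs in WT and 91, 67 and 35 in transgenic members. Sex, genotype and library cannot be told apart in any value below. Some members also carried genes of other cells. In the transgenic library 4 members held 254 of the 256 UMIs of the 12 leukocyte markers, with 4 to 15 endothelial UMIs and no Kdr, and made up 7.58% of the transgenic members' UMIs, whereas WT members held 2 UMIs of this list in all. Ptprc, which encodes CD45, stood at 0 UMIs in WT and 177 UPM in transgenic members. Pericyte markers reached 10 UMIs in 1 WT and 2 transgenic members, and red cell genes passed 5% of the UMIs in 2 members of each library. These 3 WT and 8 transgenic cells held 9.17% and 20.8% of the members' UMIs, and values without them, a comparison chosen after the data were seen, rest on 82 and 67 cells. Their part in the other results was not tested beyond those values. Doublets were not removed. The Scrublet caller marked only 0.0752% of WT and 0.262% of transgenic cells, and whether it had worked was not tested.

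The members carried Kdr, an endothelial marker that did not choose them, in most cells. Pecam1, the platelet endothelial adhesion molecule (chr11:106654217-106750628, minus strand, GRCm38), reached 1733 UPM in WT members and 1361 UPM in transgenic members, against 1.58 and 1.70 UPM in the 1123 and 1331 progenitors of the same libraries. Cdh5, VE-cadherin (chr8:104101625-104144511, plus strand), stood at 983 and 1063 UPM. Kdr, which the rule did not use, was detected in 82 of 85 WT and 68 of 75 transgenic members, at 1741 and 975 UPM, against 0.73 and 0.64 UPM in progenitors. Kdr lies at chr5:75932827-75978458 on the minus strand. Of the 7 transgenic members without a Kdr UMI, 4 were the cells with leukocyte genes.

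The lymphatic limit set aside 13 WT and 10 transgenic cells, so the low lymphatic levels of the members are part of how they were chosen. Mmrn1, Lyve1, Reln and Ccl21a had no UMI in any member, and Prox1, the master regulator of lymphatic fate, had 2 UMIs in 1 transgenic member. In the cells set aside Prox1 stood at 415 and 697 UPM, Lyve1, a hyaluronan receptor, at 1035 and 2293 UPM, and Ccl21a, a lymphatic chemokine, at 4358 and 2869 UPM. Flt4, the receptor of VEGF-C, was the exception, at 68.8 UPM in the WT members and 33.5 UPM in the transgenic members. It alone placed 6 WT and 3 transgenic cells beyond the lymphatic limit, so the cells set aside are not all lymphatic by their other genes. Just inside that limit, at a lymphatic sum of 2, lay 18 WT and 5 transgenic members, and just outside, at 3, lay 4 and 1 cells. Just inside the endothelial limit, at a sum of 3, lay 2 and 3 members, and just outside, at 2, lay 1 and 2 cells.

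**Figure D1:**
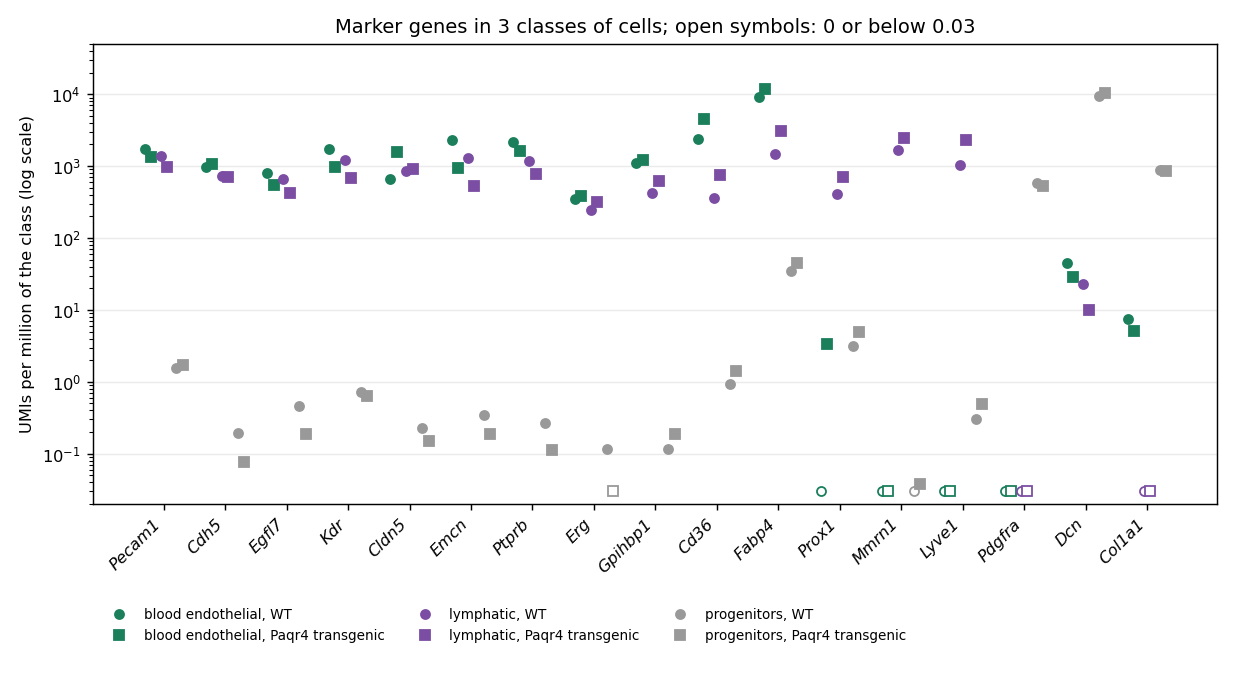
UPM of the class, on a log scale, for marker genes (x axis) in blood endothelial cells, the cells set aside as lymphatic and progenitors, with WT and Paqr4 transgenic libraries in separate symbols and open symbols at 0 or near it. The endothelial genes stand highest in the blood endothelial and lymphatic classes, the lymphatic genes are at or near 0 in the blood endothelial cells, and Pdgfra is 0 in them by the rule.

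With the genes of the rule kept in the count, 490 of 3389 genes at 50 UPM or more in members of both libraries (14.5%) stood 4-fold or more above the progenitors in both. Among those with the highest ratios, apart from Cdh5 and Cldn5, were surface proteins of endothelium: Ptprb, the phosphatase VE-PTP, at 2182 and 1649 UPM, Adgrl4, an adhesion receptor, at 2167 and 1753 UPM, Emcn, the sialomucin endomucin, at 2322 and 933 UPM, and Cd93 at 558 and 680 UPM. Proteins of capillary transport were there too: Cd36 at 2411 and 4526 UPM, Gpihbp1 at 1090 and 1202 UPM, and the water channel Aqp1 at 878 and 1182 UPM. The ETS factor Erg stood at 345 and 378 UPM. Pdgfb, the ligand that holds pericytes to the vessel, stood at 331 and 194 UPM, and the endothelin receptor Ednrb at 570 and 318 UPM. The rest of the 20 were Cyyr1, Btnl9, St6galnac3, Gimap4, Myct1, Ushbp1, St8sia4 and C1qtnf9. Of the markers at 50 UPM or more in both libraries, 15 of 15 capillary, 5 of 6 arterial and 4 of 6 venous markers were past 4-fold in both, and 9 of the 15 listed arterial and 9 of the 15 listed venous markers were under that level. Vwf, von Willebrand factor of larger vessels, reached at most 1 UMI in a WT cell and 4 UMIs in a transgenic cell. Selp, the venous P-selectin, had none, and the arterial connexin gene Gja5 had none. Cd36 stood 6.62-fold and 5.97-fold higher in the members than in the cells set aside as lymphatic, and Gpihbp1 2.56-fold and 1.92-fold higher.

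The members were not uniform, and the plainest division ran between Plvap and Cldn5. Plvap (chr8:71497765-71511752, minus strand) ranged in WT members from 0 through a median of 1467 to 5083 UPM of the cell, and in transgenic members from 0 through a median of 0 to 3661 UPM. Cldn5, claudin 5 of tight junctions (chr16:18776847-18778262, plus strand), ranged from 0 through a median of 0 to 5148 UPM in WT and from 0 through a median of 1255 to 5986 UPM in transgenic members. The ranges of the libraries overlapped for each gene, while the median was 0 for Cldn5 in WT and 0 for Plvap in the transgenic library. Few cells held both. In WT, 53 of 85 members had UMIs of Plvap only, 21 of Cldn5 only, 9 of both and 2 of neither. In the transgenic library, 12 of 75 had Plvap only, 49 Cldn5 only, 9 both and 5 neither. Across cells, log levels of the 2 genes went in opposite directions, with Pearson r of -0.85 over 85 WT cells and -0.65 over 75 transgenic cells, as a description of cells that share a library and differ in depth. Among progenitors, which should lack these proteins, 12.9% and 10.5% of cells had a UMI of Plvap and 0.534% and 0.301% a UMI of Cldn5, at median depths of 22826 and 19598 UMIs, so that all member shares lie above this background at a lower depth.

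The division was also measured at equal depth, with each cell thinned to 3000 UMIs, which left out 10 WT and 7 transgenic members. Of the 75 WT cells left, 47 then had UMIs of Plvap only, 23 of Cldn5 only, 3 of both and 2 of neither, and of the 68 transgenic cells 11, 47, 4 and 6. Plvap was seen in 66.7% of the WT members and 22.1% of the transgenic ones, and Cldn5 in 26 of 75 WT cells (34.7%) and 51 of 68 transgenic cells. Unthinned, the shares of cells were 72.9% and 28.0% for Plvap and 35.3% and 77.3% for Cldn5. Igfbp3, a secreted binding protein of insulin-like growth factors, was seen in 60.0% and 20.6% of thinned cells and Gpihbp1 in 86.7% and 85.3%, so the difference between libraries did not extend to every capillary gene.

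**Figure D2:**
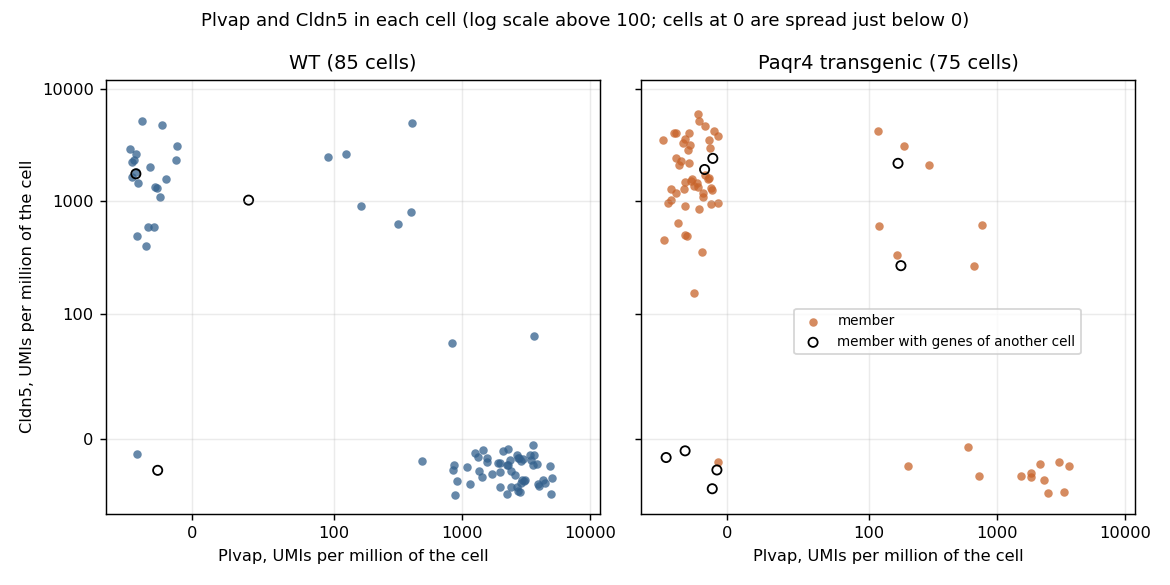
Each point is a blood endothelial cell, with Plvap on the x axis and Cldn5 on the y axis in UPM of the cell (log scale above 100, cells at 0 spread just below 0), in separate panels for 85 WT and 75 Paqr4 transgenic cells; open circles are cells with genes of another cell type. Most cells lie along 1 axis or the other, 53 WT and 12 transgenic cells with Plvap only and 21 and 49 with Cldn5 only.

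To see which genes went with this division, cells with Plvap only (53 WT, 12 transgenic) were set against cells with Cldn5 only (20 WT, 47 transgenic), with the cells that carried genes of other types left out. This split was chosen after the values were seen, rests on measured counts and is given as a description. Of 3933 genes, 68 (1.73%) stood 4-fold or more higher in the Plvap cells of both libraries and 83 (2.11%) 4-fold or more lower. The genes named from these were also chosen after their values were seen. On the Plvap side, Piezo2, a stretch-gated ion channel, stood at 648 UPM in Plvap cells against 23.1 in Cldn5 cells of WT, and at 1065 against 3.10 UPM in the transgenic library. Igfbp3 stood at 2293 against 150 UPM in WT and 1713 against 18.6 UPM in transgenic cells. Col13a1, a transmembrane collagen, stood at 597 and 324 UPM in the Plvap cells of WT and transgenic mice and had no UMI in the Cldn5 cells of either. The laminin chain gene Lama3, the transcription factor genes Meis2, Foxf1 and Irx3, the podocalyxin gene Podxl, the tip cell gene Esm1 and the lipid phosphatase gene Plpp1 lay on the same side.

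On the Cldn5 side lay much of the fatty acid programme. Fabp4 stood at 3650 UPM in Plvap cells against 18389 UPM in Cldn5 cells of WT, a log2 ratio of -2.33 (-2.42 to -2.25), and at 3102 against 14544 UPM in the transgenic library, -2.23 (-2.41 to -2.05). Pparg stood at 114 against 761 UPM in WT and 139 against 595 UPM in transgenic cells. Meox2 had 0 UMIs in the Plvap cells of both libraries and stood at 369 and 242 UPM in the Cldn5 cells. In all, 6 of 13 measured genes of the fatty acid list were 4-fold or more lower in Plvap cells in both libraries. The other 3 were Lpl, lipoprotein lipase, Aqp7, a glycerol channel, and Angptl4, an inhibitor of lipoprotein lipase. Cd36 stood at 797 against 5665 UPM in WT and 1563 against 5503 UPM in transgenic cells and fell short of 4-fold in the latter. Gpihbp1 was near even in WT, at 1093 against 1204 UPM, and lower in transgenic Plvap cells, at 857 against 1572 UPM. The arterial factor Sox17, the transcriptional regulator Mecom and the cadherin Cdh13 were also lower in Plvap cells. So were the adhesion gene Icam1 and the chemokine Cxcl9, and 6 of 18 immediate early genes, among them Fos, Egr1 and Atf3.

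The VEGF receptor genes Kdr and Flt1 were higher in the Plvap cells, by smaller ratios, and 0 of 11 measured receptors of the list were 4-fold apart in both libraries. Kdr stood at 2346 UPM in Plvap cells against 939 UPM in Cldn5 cells of WT, and at 1690 against 921 UPM in the transgenic library. Flt1 stood at 5918 against 2317 UPM and at 5927 against 2734 UPM. Cdh5, one of the choosing genes, was lower in the Plvap cells and stood at 793 against 1383 UPM and at 741 against 1308 UPM. Between the libraries, the largest gap among these 3 genes within a kind of cell was that of Kdr in Plvap cells, at a transgenic over WT log2 ratio of -0.47 (-0.73 to -0.22).

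**Figure D3:**
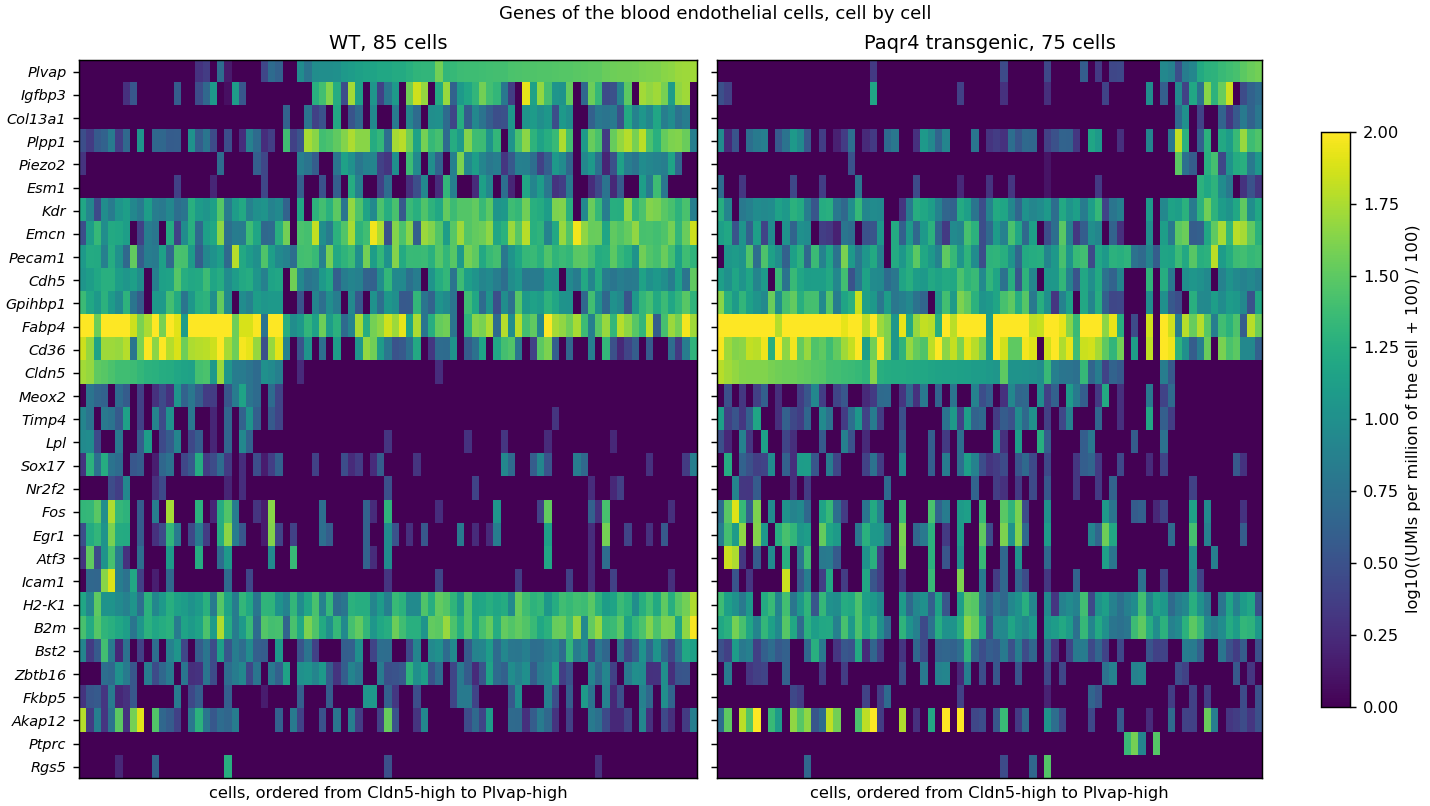
Levels of selected genes (rows) in each blood endothelial cell (columns), ordered from Cldn5-high to Plvap-high within the WT and the Paqr4 transgenic library, coloured by log10 of UPM of the cell plus 100 over 100. Igfbp3, Piezo2 and Col13a1 are bright at the Plvap end and Fabp4 and Cd36 brightest towards the Cldn5 end, and the Plvap end takes up more of the WT cells.

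Clustering of the 160 members gave 3 clusters that followed the same lines, and a cluster mostly of 1 library may be that library rather than a type of cell. The cluster with high Plvap held 53 WT and 14 transgenic cells. Among its transgenic cells were some with no Plvap and with Cldn5 at 2096, 1255 and 3796 UPM. Genes with unequal levels in the libraries can draw clusters apart, so the clustering was repeated without the 424 genes at 2-fold or more between the libraries, and 61 cells of the high-Plvap cluster were again grouped. The group then held 62.4% of WT and 25.3% of transgenic members. Another cluster, with 17 WT and 26 transgenic cells, was led by Fos, Atf3 and Icam1. The remaining cluster, with 15 and 35 cells, had Cldn5 at 1193 UPM and Plvap at 52.0 UPM. It held 8 of the 11 members with genes of other cells, and its leading genes were those of haemoglobin and leukocytes. The leukocyte genes came from few cells, with Ptprc in 4 of its 50. Clustering without the 11 members again gave a cluster of this kind, with 14 WT and 29 transgenic cells and Cldn5 at 1272 UPM. None of the 3 was given a name of a cell type.

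Between the libraries, 576 of 4320 genes at 50 UPM or more in either library stood 1.5-fold or more higher in transgenic members (13.3%) and 595 stood 1.5-fold or more lower (13.8%). The median log2 ratio over all these genes was 0.003. These counts describe 2 libraries, and no share of them can be assigned to the transgene. Because the libraries differed in their mix of Plvap and Cldn5 cells, the lists below are given with their median when the 3 clusters are weighted equally, also chosen after the data were seen, and ratios under those weights are given beside many of the genes that they move. These weights do not even out the mix inside a cluster. In the high-Plvap cluster the log2 ratio of Cldn5 was 2.54 (1.38 to 3.70), on 14 WT and 15 transgenic UMIs. In the cluster led by Fos that of Plvap was -3.15 (-4.04 to -2.37).

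Of the 12 growth factor receptors, all measured, 3 were 1.5-fold or more lower in transgenic members and 0 higher, against 13.8% and 13.3% of all genes. The 3 were Kdr, the apelin receptor gene Aplnr and Flt4, whose level the lymphatic limit of the choice caps. The list had a median log2 ratio of -0.42, -0.29 without the members that carried other cells' genes and -0.16 with equal weights. Kdr differed by -0.84 (-0.98 to -0.70), with a median of 1600 UPM over WT cells and 844 UPM over transgenic cells and overlapping ranges, but by -0.27 with equal weights. Aplnr differed by -0.71, and by -0.48 with equal weights. Flt1, the decoy receptor, stood at 4413 and 3210 UPM and Nrp1, a co-receptor of VEGF, at 1886 and 1398 UPM, with ratios of -0.46 and -0.43 that became 0.05 and -0.12. The angiopoietin receptor Tek was near even, at 326 and 352 UPM, and Nrp2 was higher, at 267 and 385 UPM. In progenitors the same receptor genes had a median of -0.26.

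Of 10 ligands at the floor of 50 UPM, 1 was higher and 3 lower, against 13.3% and 13.8% of all genes. Their median was -0.04, and -0.04 with equal weights too. Kitl, the stem cell factor, was near even at 950 and 975 UPM. Pdgfd, a platelet-derived growth factor, stood at 1041 and 678 UPM, a ratio of -0.62 that became -0.30, and Bmp6 at 535 and 748 UPM. Esm1, a secreted proteoglycan of tip cells, stood at 251 and 90.4 UPM, a ratio of -1.47 that became 0.03 with equal cluster weights. The 8 tip cell markers measured had a median of -0.09, and -0.19 with equal weights. Among them Igfbp3 and Mcam, a vascular adhesion molecule, were lower (1399 and 306 UPM, 170 and 50.2 UPM), and Plaur, the urokinase receptor, was higher (87.3 and 249 UPM). The ratios of Plvap (-2.20) and Igfbp3 (-2.19) were -0.50 and -0.60 with the clusters weighted equally.

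Junction genes showed no common direction apart from Cldn5. Of 16 measured, 1 was higher and 4 lower, against 13.3% and 13.8% of all genes, with a median of -0.19 and of -0.10 with equal weights. Cldn5 itself stood at 660 and 1577 UPM, a log2 ratio of 1.26 (1.10 to 1.41) that was 0.40 with equal weights. Jam3, a junctional adhesion molecule, stood at 310 and 124 UPM, a ratio of -1.32 that became -0.27. The 21 endothelial transcription factors had a median of -0.19, and -0.10 with equal weights, with 3 higher and 3 lower, near the shares over all genes. Fli1 stood at 1243 and 1463 UPM, Klf2, a gene that responds to flow, at 604 and 415 UPM, and Sox7 at 73.8 and 137 UPM, a ratio of 0.90 that became 0.38. The 7 Notch genes measured had a median of -0.03, and 0.12 with equal weights, and 1 lower member, Notch4, at 136 and 87.1 UPM, a ratio of -0.65 that became -0.33.

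Fatty acid transport genes were higher in transgenic members, but not when the clusters were weighted equally. Of 13 measured, 6 were 1.5-fold or more higher and 0 lower, against the 13.3% and 13.8% over all genes, with a median of 0.48. Without the members that carried other cells' genes, 8 of 13 were higher and 0 lower, with a median of 0.78. The shares over all genes were then 13.9% and 14.6%. Cd36 ranged over WT cells from 0 through 665 to 12260 UPM and over transgenic cells from 0 through 3916 to 13627 UPM. Its summed ratio was 0.91 (0.82 to 0.99). Fabp4 had medians of 4249 and 8387 UPM in cells that ranged from 0 to 50266 and from 0 to 67086 UPM, and a ratio of 0.39 (0.35 to 0.44). Angptl4 stood at 81.1 and 213 UPM, Pparg at 374 and 563 UPM, and Meox2 at 106 and 172 UPM. With equal cluster weights the list's median was -0.09, and the ratios of Pparg, Aqp7 and Meox2 turned to -0.11, -0.15 and -0.37. Cd36 was then at 0.22 and Angptl4 at 0.57. Within Cldn5 cells, 5 of 9 list genes with at least 10 UMIs were below 0 and 4 above, with a median of -0.04, and within Plvap cells the counts were the same with a median of -0.14. Over all 13 genes, the sparse ones included, 8 were below 0 in Cldn5 cells with a median of -0.17 and 5 in Plvap cells with a median of 0.18. Progenitors of the same libraries had a median of 0.52 over the same 13 genes.

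Genes of the interferon response and of MHC class I were lower in transgenic members, in the mix as in Plvap cells and Cldn5 cells. The difference was smallest in the cluster led by Fos, where the list's summed UMIs had a log2 ratio of -0.16 (-0.23 to -0.09). That ratio was -0.59 in the high-Plvap cluster and -0.46 in the remaining cluster. Of 26 measured genes, 14 were 1.5-fold or more lower and 0 higher, against 13.8% of all genes lower. The median ratio was -0.59, and progenitors had a median of -0.13 over the same genes. B2m, the light chain of MHC class I, ranged over WT cells from 332 through 2056 to 9530 UPM and over transgenic cells from 0 through 1193 to 4391 UPM. Its summed levels were 2219 and 1333 UPM, a ratio of -0.74 (-0.86 to -0.61) that became -0.53 with equal weights. H2-K1, a heavy chain (chr17:33996017-34000347, minus strand), stood at 1564 and 946 UPM and H2-D1 at 1827 and 1207 UPM, and with equal weights their ratios were -0.59 and -0.43. Heavy chain genes are near-identical copies, so the split of reads among H2-K1, H2-D1 and the H2-Q genes is uncertain. Several genes outside the heavy chain family were lower as well: Tap1, a peptide transporter, at 91.0 and 36.8 UPM, Psmb9, a subunit of the immunoproteasome, at 141 and 67.0 UPM, the antiviral gene Rsad2 at 275 and 137 UPM, and Bst2, tetherin, at 465 and 265 UPM. Isg15 went the other way, by a log2 ratio of 0.54 (0.01 to 1.07), and Ifitm3 was near even at 929 and 973 UPM. Rsad2, Bst2, Isg15 and Ifitm3 were chosen after their values were seen.

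Over 15 other ways to process the data the median of this list lay between -0.72 and -0.40. Within Plvap cells 21 of the 26 genes were below 0, 14 of them by 1.5-fold or more, against 21.7% of 4122 genes there, and 0 were higher by as much, against 16.7%. An interval below 0 was found for 13, and the median was -0.66, against -0.03 over the 4122 genes. Within Cldn5 cells 24 were below 0, 8 by 1.5-fold or more against 13.9% of all genes, with 1 gene higher by as much against 17.9%, and a median of -0.32 against 0.01. H2-K1 had ratios of -0.94 (-1.30 to -0.61) in Plvap cells and -0.28 (-0.54 to -0.02) in Cldn5 cells, and B2m -0.71 and -0.16. Of MHC class II, Cd74, the invariant chain, had 77 UMIs in 18 WT members, while its 74 UMIs in the transgenic library were all in 1 of the members with genes of other cells. In the other 67 transgenic members it had 0 UMIs. With 3 UMIs in place of 0 the ratio was -4.04, and the upper limit of its interval was -3.71.

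**Figure D4:**
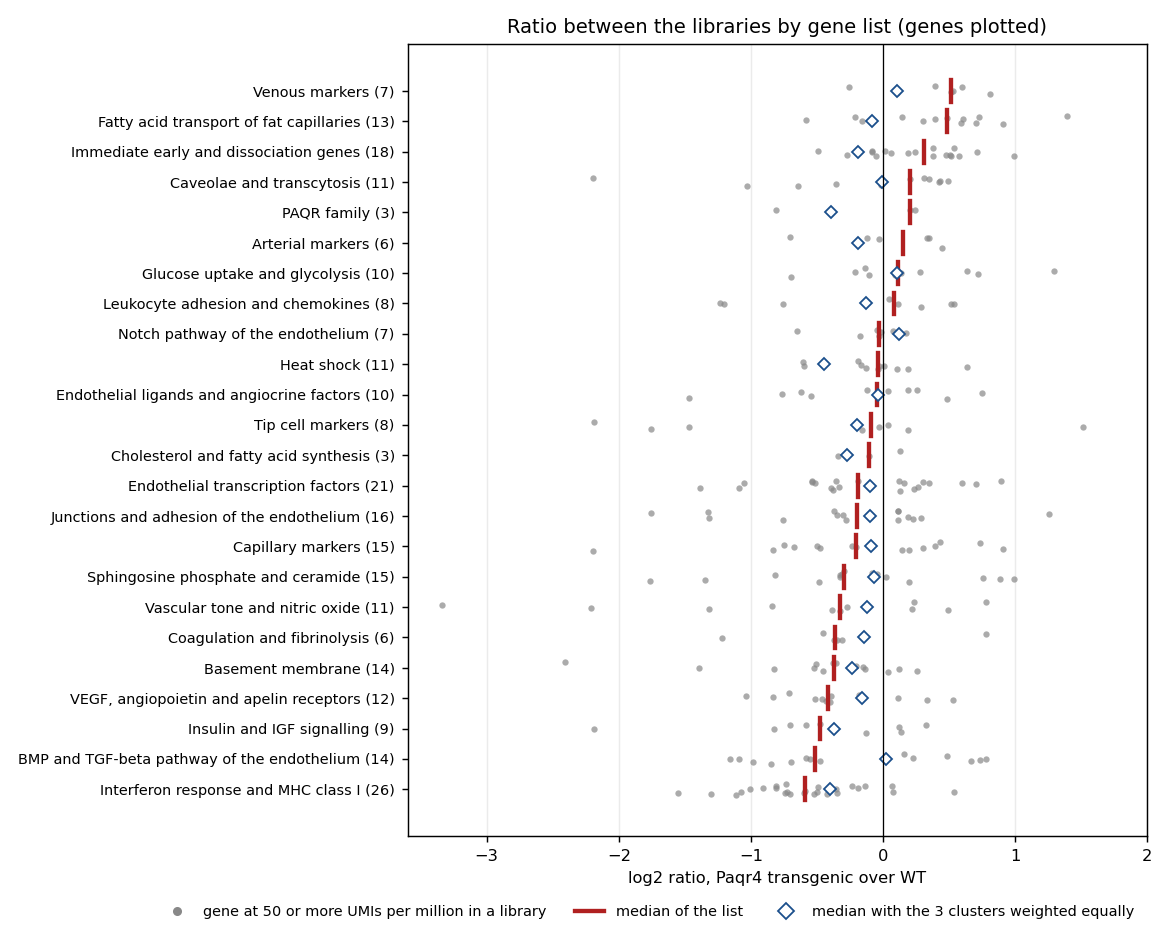
Log2 ratio of Paqr4 transgenic over WT blood endothelial cells (x axis) for genes at 50 or more UPM in a library, by gene list with the number of genes plotted; red lines are list medians and diamonds the medians with the 3 clusters weighted equally. The interferon and MHC class I list lies below 0 by both medians (-0.59 and -0.40), while the fatty acid list is at 0.48 by one and -0.09 by the other.

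**Figure D5:**
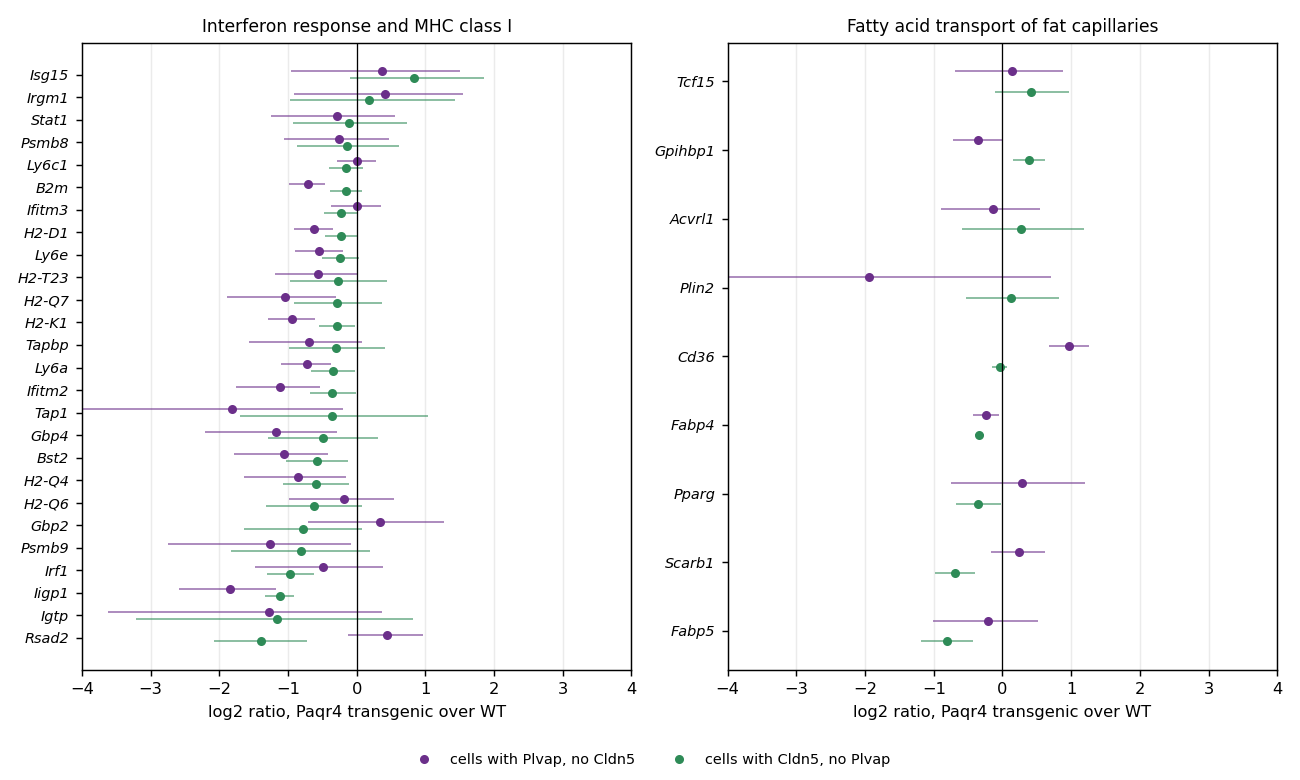
Log2 ratio of Paqr4 transgenic over WT for each gene of the interferon and MHC class I list and of the fatty acid list, computed separately in cells with Plvap only and in cells with Cldn5 only, with exact 95% counting intervals as lines. Of 26 interferon genes, 21 lie below 0 in Plvap cells and 24 in Cldn5 cells, whereas the 9 fatty acid genes fall on both sides.

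BMP and TGF-beta genes went both ways. Of 14 measured, 3 were higher and 5 lower, with a median of -0.51 that became 0.02 with equal weights. Over all genes 13.3% were higher and 13.8% lower, and these shares also stand beside the counts of the next lists. Bmpr2, the type 2 BMP receptor, stood at 982 and 496 UPM, and Id3, a target of BMP signals, at 386 and 181 UPM, and their ratios of -0.99 and -1.09 became -0.32 and -0.31. Basement membrane genes had 0 of 14 higher and 3 lower, a median of -0.37 and -0.24 with equal weights, while progenitors had 0.26 for the same genes. Col4a1, a chain of collagen IV, stood at 2225 and 1735 UPM, Igfbp7 at 4252 and 2394 UPM and Col15a1 at 284 and 53.6 UPM. Igfbp7 went from -0.83 to -0.41 with equal weights and Col15a1 from -2.41 to -1.55. In the list of vascular tone, 1 of 11 was higher and 4 lower, with a median of -0.33 that became -0.12. The lower genes included Calcrl, the adrenomedullin receptor, at 427 and 171 UPM, its partner Ramp3 at 148 and 31.8 UPM, and Ptgs1, cyclooxygenase 1, at 67.6 and 6.70 UPM. With equal weights Calcrl went from -1.32 to -0.53, Ramp3 from -2.21 to -0.29 and Ptgs1 from -3.34 to -2.14. Insulin and IGF signalling had 0 of 9 higher and 3 lower and a median of -0.48, and -0.37 with equal weights, with the insulin receptor gene Insr at 253 and 156 UPM, a ratio of -0.70 that became -0.52. Caveolar genes had 0 of 11 higher and 3 lower, with 6 above 0 and 5 below, and a median of 0.21 that became -0.008. Cav1, caveolin 1, stood at 857 and 1204 UPM and Ehd4 at 418 and 204 UPM, and the ratio of Ehd4 turned from -1.03 to 0.24.

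Paqr4, the gene of the transgene (chr17:23736186-23740867, minus strand), was sparse in these cells and did not separate the libraries. It had 13 UMIs in 10 WT members and 9 UMIs in 8 transgenic members, that is 16.0 and 15.1 UPM, with a log2 ratio of -0.08 and an interval of -1.49 to 1.25. Progenitors stood at 7.93 and 9.26 UPM. Whether the counts of this annotated gene include RNA of the transgene was not tested. An effect of up to 2-fold in either direction lies within that interval and was not detectable at this depth. The family to which it belongs includes the adiponectin receptors, of which Adipor1 stood at 118 and 136 UPM and Adipor2 at 159 and 188 UPM. Mmd stood at 76.2 and 43.5 UPM. These 3 were the measured members of 11.

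Ceramide and sphingosine phosphate genes, the lipid pathway in which PAQR proteins have been placed, had 3 of 15 higher and 3 lower. Over all genes 13.3% were higher and 13.8% lower. The list's median was -0.30, and -0.07 with equal weights. The lower genes of the list were the lipid phosphatases Plpp1 (1844 and 544 UPM) and Plpp3 (2374 and 931 UPM) and the desaturase Degs1 (133 and 75.4 UPM). Those higher were the ceramidases Acer3 (72.5 and 144 UPM) and Asah2 (66.4 and 112 UPM) and the glucosylceramide synthase Ugcg (72.5 and 134 UPM). With equal weights the ratios of Plpp1 (-1.76), Plpp3 (-1.35) and Ugcg (0.89) became -0.40, -0.55 and 0.26, and without the members that carried other cells' genes that of Acer3 (0.99) became 0.53. Degs1 and Asah2 were named to complete the count, after their values were seen. S1pr1, the main sphingosine phosphate receptor of endothelium, stood at 524 and 417 UPM. Plpp1 was among the genes 4-fold or more higher in Plvap cells, and within Plvap cells its ratio was -0.37 (-0.60 to -0.16), within Cldn5 cells -0.11 (-0.59 to 0.38).

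Immediate early genes, which dissociation of tissue can switch on, had 2 of 18 higher and 0 lower, against 13.3% and 13.8% of all genes. Their median was 0.31, against -0.19 in progenitors, and -0.19 with equal weights. Without the members that carried other cells' genes, 8 of 18 were higher and 0 lower, with a median of 0.49. The shares over all genes were then 13.9% and 14.6%. Atf3 stood at 269 and 536 UPM, Btg2 at 529 and 867 UPM and Fos at 706 and 737 UPM. The ratios of Atf3 (0.99) and Btg2 (0.71) became 0.35 and 0.12 with equal weights. Proliferation was at the limit of detection: 2 of 15 genes reached the floor, both lower, and 27 WT UMIs of Mki67 came from 1 cell.

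Among genes at 100 UPM or more in either library, with sex-linked, haemoglobin, immunoglobulin, mitochondrial and Gm or Rik genes left out, the 12 highest ratios, from Ccl5 to Dock10, belong mostly to the members with leukocyte genes: Ptprc, Arhgap15, Dock2 and Cd52 had no WT UMI and were found in 4 transgenic cells each. Without the members that carried other cells' genes, 602 of 4333 genes were higher and 632 lower. Among the highest then were Samd5 at 20.3 and 125 UPM and Akap12, a scaffold of protein kinase A, at 508 and 2199 UPM. Over all 85 WT and 75 transgenic members, Akap12 had a median of 144 and 145 UPM and a maximum of 8013 and 23505 UPM. Its summed difference therefore does not describe the median cell. Without the members that carried other cells' genes, the 5 cells with most Akap12 held 56.3% of its UMIs in WT and 60.7% in the transgenic library. The lowest, below Cd74, were Sema3c, a secreted semaphorin, at 122 and 8.46 UPM (-3.85, -5.75 to -2.44), and Foxn2 at 107 and 10.6 UPM (-3.34, -5.00 to -2.06). With cells that carried Pdgfra let in among the members, the ratio of Sema3c was 0.94. Fkbp5, a co-chaperone of the glucocorticoid receptor, stood at 188 and 38.1 UPM, and Zbtb16, a zinc finger factor, at 441 and 101 UPM. Samd5, Akap12, Foxn2 and Zbtb16 were chosen after their values were seen. Other genes with low ratios among all members were Proser2, Plscr1, Kctd12b, Fmnl2 and Chst2.

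Few genes were 1.5-fold or more apart in the same direction in every cluster. Of 3810 genes with 10 or more UMIs in each cluster, 42 were 1.5-fold or more higher and 54 lower in transgenic cells of all 3 clusters, with the members that carried other cells' genes left out; the genes named here were chosen after their values were seen. Zbtb16 had ratios of -2.38, -1.29 and -2.83 in clusters 1, 2 and 3, the last being the cluster with high Plvap. Fkbp5 had -0.92, -2.90 and -1.73, with an interval of -2.77 to 0.87 in the cluster numbered 1. Interferon-inducible GTPases were among the lower genes. Gbp5 had -2.55, -1.81 and -1.47, the last on 3 transgenic UMIs with an interval of -3.80 to 0.17. Iigp1 had -0.96 in clusters 1 and 2 with an interval of -1.71 to -0.37 in cluster 3. The counts of 42 and 54 rest on ratios alone, and the single-cluster intervals of many of these genes reached past 0. Higher in all 3 were Akap12 (0.83, 1.56 and 1.30) and Cyp26b1, which degrades retinoic acid (1.07, 1.36 and 2.27). With the members that carried other cells' genes kept, Akap12 in cluster 1 had a ratio of -0.22 (-0.63 to 0.20). Per cell, Zbtb16 ranged from 0 through 319 to 1897 UPM in WT and from 0 through 0 to 711 UPM in transgenic members. At 3000 UMIs a cell it had UMIs in 54 of 75 WT cells and 17 of 68 transgenic cells.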

How the data were processed

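The authors deposited, for each library, a matrix of raw counts, that is, unnormalised UMIs per gene and barcode, for all barcodes. Per the submitters' processing notes the build was mm10 and the software Cell Ranger 7.0.0; per the file headers it was Cell Ranger 4. The members and the 36 gene lists were chosen with earlier results of these data known.

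UMIs were summed over the members of a library and divided by their total (UPM). Ratios carry exact conditional binomial intervals, shares Clopper-Pearson intervals at 95%. With 1 library a genotype no test was run; 1.5-fold between libraries at 50 UPM or more in either, and 4-fold over progenitors, count as called. A count of 0 was set to 3 UMIs in ratios. Named genes were the genes of the choosing rule with Kdr and Cldn5, the 20 with the highest ratio to progenitors in both libraries at 100 UPM or more, up to 5 by level and 4 by ratio in each list, Paqr4, and the 12 highest and 12 lowest ratios; others are named as chosen later. Progenitors were cells with Pdgfra and an endothelial sum below 3. Members were clustered from 1000 variable genes, 10 components and 10 neighbours by Leiden at resolution 0.5, seed 1. Free RNA, from barcodes with at most 50 UMIs, was estimated at 0.391% of WT and 0.221% of transgenic member UMIs. The ratio script was tested on simulated data. Python 3.11.15, numpy 2.4.6, scipy 1.17.1, pandas 2.3.3, scanpy 1.11.5, anndata 0.12.19, leidenalg 0.10.2, igraph 0.11.9 and matplotlib 3.10.9 were used. Positions are from GENCODE M21 (GRCm38).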

Additional observations from a re-analysis of the deposited data

How the results depend on the processing

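No paired analysis was possible because each genotype has 1 library. The counts of genes depend on the floor: 123 were higher and 155 lower at 200 UPM or more, and 2358 and 2285 with 1 UMI or more in each library. With a lymphatic sum of 0, the members were 3.54% of WT and 3.80% of transgenic cells, so the order of the shares turned. Of the list medians, 361 values stayed between the median lower bound and the median upper bound of the list's genes, and 23 moved out. That range is not an interval of the median itself. Of the gene ratios, 2555 stayed within their interval, 364 moved out of it and 26 reversed. A reversal is a change of sign in a ratio of 1.5-fold or more as reported. Changes of sign in smaller ratios are not among the 26. The causes were not tested.

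Equal cluster weights gave list medians of -0.16 for the VEGF receptors, -0.085 for fatty acid transport, -0.39 for the PAQR family, 0.025 for BMP, -0.19 for immediate early genes and -0.45 for heat shock, and ratios of 0.031 for Esm1, -0.11 for Pparg, -0.15 for Aqp7, -0.37 for Meox2, -0.038 for Nr2f2, 0.050 for Podxl, 0.23 for H2-Ab1, 0.24 for Ehd4, -0.11 for Rgs5 and -0.65 for Hbb-bs. Without the members that carried other cells' genes, the heat shock median was 0.22, and the ratios were 0.23 for Dnajb1, -0.97 for Hbb-bs, -1.48 for Hbb-bt, -0.36 for Stat4 and -0.94 for Dock10. These 2 settings were chosen after the data were seen. With no limit on Pdgfra, the medians were -0.57 for the VEGF receptors, -0.36 for capillary markers and -0.14 for immediate early genes, and the ratios 0.066 for Dnajb1 and 0.94 for Sema3c. Thinning to 3000 UMIs gave medians of -0.65 for tip cell markers and -0.31 for the PAQR family, and ratios of -0.029 for Nr2f2 and -0.86 for Rgs5. A lymphatic sum of 0 gave 0.10 for H2-Ab1 and -0.038 for Hbb-bs, removal of Scrublet calls -1.94 for Hbb-bs and -3.16 for Hbb-bt, equal cell weights 0.055 for Dnajb1, and leaving out the 5 deepest members of each library 0.11 for Dnajb1 and -1.27 for Hbb-bt.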

Other observations

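The feature list holds an added eGFP sequence, which had 4 UMIs over all barcodes of the transgenic library and 0 over those of the WT library.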
